A study of Homo sapiens with 6 samples.

Results

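The genes examined here are the nuclear-encoded members of respiratory complexes II to V, chosen by name among the protein-coding rows of a human gene expression table. The names were SDHA to SDHD, those starting with SDHAF, UQCR, COX4 to COX8 or ATP5, and CYC1, CYCS and NDUFA4. This gave 58 of the 58735 genes in the table: 4 subunits and 4 assembly factors of complex II, 10 genes of complex III, CYCS, 18 genes of complex IV, 20 genes of complex V and the read-through gene ATP5MF-PTCD1. The names alone decided which genes are members.

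Complexes II, III and IV pass electrons from succinate and other fuels to oxygen in the inner mitochondrial membrane, and complexes III and IV pump protons while doing so. Cytochrome c carries the electrons between complexes III and IV, and complex V, the ATP synthase, lets the protons flow back and makes ATP. All of complex II is encoded in the nucleus, whereas complexes III, IV and V also contain subunits encoded by the mitochondrial genome.

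HCT116SCs, the cells that were sequenced, are CD44+CD326+ cells sorted with magnetic beads from HCT116, an established human colorectal cancer line, and they were grown as tumor spheres in serum-free medium with epidermal growth factor, basic fibroblast growth factor and B27. In every group the spheres were dissociated and transfected with a liposomal reagent, the genotype is given as WT, and the cells were harvested after 48 h. The 3 NC libraries come from cells that received negative control siRNA, and the 3 siPSCA libraries come from cells that received siRNA against PSCA, a cell-surface antigen of the Ly6 family. The comparison asks how RNA levels differed once PSCA had been targeted. Which of the PSCA siRNAs was sequenced is not given in the sources used here, nor is whether the replicates were separate cultures, so every p-value measures the spread between these libraries, which may be technical.

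Reads on genes ranged from 16099716 to 17302219 per library, and 1 read on a gene of 1 kb equalled 0.0549 to 0.0595 FPKM (fragments per kilobase of exon, scaled to the total of the library). PSCA itself had 4, 12 and 15 reads in NC and 9, 9 and 7 in siPSCA, so its RNA did not tell the groups apart. The titles of siPSCA 2 and siPSCA 3 number the cell line differently from every other label of these libraries. Of 11 colorectal epithelial markers 8 had a mean FPKM of at least 1, while VIL1, LGR5 and CDX1 were near 0 or had no read. EPCAM (CD326) was at 94.7 to 123 FPKM in NC and 93.3 to 97.3 in siPSCA, and CD44 at 79.2 to 87.5 and 59.6 to 62.4. CDH1 and PROM1 were also lower in every siPSCA library, and KRT8, KRT19 and CDX2 were higher. Such separation of the groups was found for 64.5% of the genes tested below. The 5 immune markers summed to at most 0.565 FPKM and the 3 endothelial markers to at most 0.251 FPKM, with no CD3E read in any library. The 6 fibroblast markers summed to 3.49 to 5.74 FPKM in NC and 6.17 to 6.74 in siPSCA, nearly all of it COL1A1, with LUM at 0. NC 3 stood apart from NC 1 and NC 2 along the GC content of the genes, and values without it are given beside the results that it moved most.

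Of the 58 members, 57 had at least 1 read and 49 reached a mean of 1 FPKM over the 6 libraries, none of them with an NC mean under 1. These 49 held 41 to 15769 reads per gene and library, and 45 held at least 100 reads in every library. Under limma's linear model on log2(FPKM + 1), fitted to all 13796 genes over the minimum, 22 members were higher in siPSCA at an adjusted p under 0.05, 5 were lower and 22 were not called. Over all tested genes 26.6% were called higher, 24.2% lower and 50.7% in either direction. The fold change was positive for 38 of the 49 members (50.9% of all tested genes), and its median on the log2 scale was 0.21, beside 0.01 over all tested genes. Without siPSCA 1, 14 members were called higher (16.7% of all tested genes), and without siPSCA 2, 13 were (17.4%). Of the lower calls 2 were left without siPSCA 1 or siPSCA 3, and 3 without NC 2 or siPSCA 2. The share of all tested genes called lower in these fits was not counted. All siPSCA libraries were above all NC libraries for 27 members (33.7% of all tested genes) and below for 8 (30.8%). The groups overlapped for 14 of the 49 members and for 4902 of the 13796 tested genes, while 64.5% of all tested genes did not overlap. A gene without overlap has an exact two-sided permutation p of 0.1, the smallest that 3 against 3 libraries allow.

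By complex, no subunit of complex II was called, and CYCS rose. In complex III 7 of 10 genes rose and 1 fell, in complex IV 6 of 12 rose and 2 fell. In complex V 8 of 18 rose and 1 fell. Of all tested genes 26.6% were called higher, 24.2% lower and 50.7% in either direction. Median log2 fold changes were -0.03 for the subunits of complex II, 0.39 in complex III, 0.15 in complex IV and 0.19 in complex V. Within complex IV the changes were the most unequal, with a standard deviation across genes of 0.53, beside 0.32 in complex III, 0.31 in complex V and 0.49 over all tested genes. The differences between complexes were not tested.

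**Figure D1:**
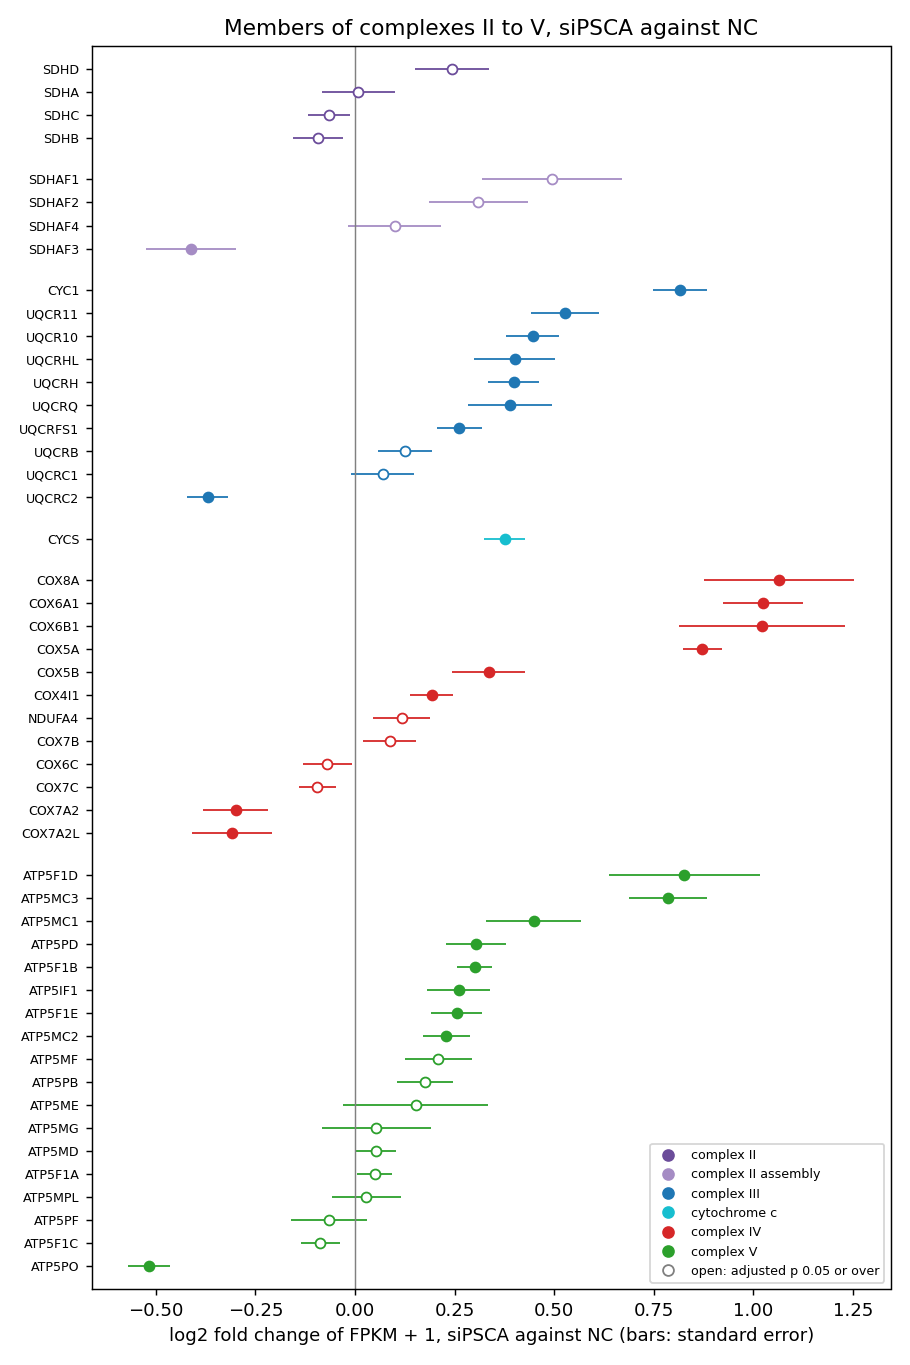
Log2 fold change of siPSCA against NC on the log2(FPKM + 1) scale for the 49 members over the minimum, grouped by complex. Points are limma estimates, bars are standard errors, filled points have an adjusted p under 0.05 and open points do not. SDHA, SDHB and SDHC sit near 0, SDHD lies at 0.24, and COX8A, COX6A1 and COX6B1 lie farthest to the right.

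Summed over the subunit genes, complex II stood at 64.2 ± 2.32 FPKM in NC (SD, n = 3) and 65.3 ± 4.003 in siPSCA, and the groups overlapped. The sums for complex III were 361 ± 17.9 and 470 ± 21.6 FPKM, a ratio of 1.30. Complex IV went from 410 ± 9.41 to 525 ± 25.7 FPKM, a ratio of 1.28, and complex V from 737 ± 11.5 to 863 ± 24.7 FPKM, a ratio of 1.17. For complexes III, IV and V every siPSCA library lay above every NC library. Such sums weigh genes by their level, and a few genes moved far. ATP5F1B went from 308 to 379 FPKM, CYC1 from 68.5 to 121, COX6B1 from 45.4 to 90.6 and COX8A from 30.8 to 66.0. The log2 fold change was negative for 1 of 10 tested genes of complex III, 4 of 12 of complex IV and 3 of 18 of complex V. All 58 genes together took 0.479% to 0.489% of the reads on genes in NC and 0.552% to 0.584% in siPSCA. In RNA from a whole culture, a change in the share of cells of a kind and a change of RNA per cell cannot be told apart.

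Complex II, succinate dehydrogenase, oxidizes succinate in the citric acid cycle and passes the electrons to ubiquinone. SDHA, the flavoprotein that binds succinate, was at 14.5, 15.3 and 18.5 FPKM in NC 1, NC 2 and NC 3 and at 16.4, 16.4 and 15.6 in siPSCA 1, siPSCA 2 and siPSCA 3, the order used for all values that follow. SDHB, the iron-sulfur subunit, was at 23.8, 25.3 and 25.3 FPKM in NC and at 24.9, 22.8 and 21.9 in siPSCA. For both genes the groups overlapped. The membrane anchor SDHC was at 7.83, 7.84 and 8.45 FPKM in NC and at 7.59, 7.72 and 7.61 in siPSCA, and the other anchor, SDHD, was at 15.8, 15.8 and 14.4 FPKM in NC and at 21.0, 16.95 and 17.2 in siPSCA. The siPSCA libraries lay below NC for SDHC and above NC for SDHD, yet neither passed the test, with adjusted p of 0.330 and 0.0687.

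The 95% intervals of the log2 fold change ran from -0.21 to 0.23 for SDHA, from -0.24 to 0.06 for SDHB, from -0.19 to 0.06 for SDHC and from 0.02 to 0.47 for SDHD. The intervals of SDHA and SDHD include 0.19, the rise that was called for COX4I1. SDHA also has 3 pseudogenes in the annotation, which drew 17.3% of the reads summed over the gene and its copies, so its level is uncertain. After a trend along GC content and gene length had been removed from each library, SDHC (log2 fold change 0.23, adjusted p = 0.00663) and SDHD (0.45, adjusted p = 0.0151) were called higher.

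Among the assembly factors of complex II, SDHAF3, which helps to mature the iron-sulfur subunit, fell from 5.58, 6.36 and 7.64 FPKM in NC to 4.23, 5.01 and 4.65 in siPSCA (log2 fold change -0.41 ± 0.11 SE, adjusted p = 0.0240). All siPSCA libraries lay below all NC libraries. The call of SDHAF3 was lost without NC 2 (adjusted p = 0.0556), without siPSCA 1 (0.0829), without siPSCA 3 (0.0637), with no minimum FPKM (0.0644) and after the GC and length trend had been removed (0.0522). SDHAF1, another factor for the iron-sulfur subunit, was at 7.83, 7.09 and 5.14 FPKM in NC and at 8.63, 12.1 and 8.75 in siPSCA, and was not called (0.49 ± 0.18 SE, adjusted p = 0.0565). Without NC 1 it was called (adjusted p = 0.0452). SDHAF2, which attaches the flavin to SDHA, and SDHAF4 were not called, at 0.31 and 0.10 on the log2 scale. When NC 2 was left out, SDHAF2 was called (adjusted p = 0.0461). Of the exon bases of SDHAF2 30.5% are shared on the same strand with AP003108.2, so its level is uncertain.

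In complex III, which moves electrons from ubiquinol to cytochrome c, most genes were higher in siPSCA. CYC1, the heme-carrying cytochrome c1, was at 71.5, 70.8 and 63.2 FPKM in NC and at 126, 124 and 114 in siPSCA, a 1.77-fold rise in the means (log2 fold change 0.82 ± 0.07 SE, adjusted p = 0.000755). CYC1 was at 0.19 and not called (adjusted p = 0.166) with the GC and length trend removed. UQCRH, the hinge subunit next to CYC1, was at 65.9, 66.2 and 66.8 FPKM in NC and at 95.5, 85.9 and 82.2 in siPSCA, and it rose by 0.40 ± 0.06 SE (adjusted p = 0.00412). UQCRC1, a large core subunit, was at 68.7, 68.8 and 57.4 FPKM in NC and at 67.9, 69.0 and 67.2 in siPSCA. Here the groups overlapped, and with NC 3 as the lowest library the difference was 0.07 ± 0.08 SE (adjusted p = 0.484).

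UQCRC2, the partner of UQCRC1 in the core (chr16:21952660-21983660, plus strand, GRCh38), was the complex III gene that fell. It was at 30.9, 32.9 and 33.6 FPKM in NC and at 24.7, 24.5 and 25.6 in siPSCA, with no overlap, and its log2 fold change was -0.37 ± 0.05 SE (adjusted p = 0.00267). The call of UQCRC2 held under each alternative tried and without each single library. The catalytic Rieske iron-sulfur protein UQCRFS1 rose from 25.8 ± 1.53 to 31.0 ± 0.612 FPKM (0.26 ± 0.06 SE, adjusted p = 0.0112).

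The small accessory subunits of complex III UQCR10, UQCR11 and UQCRQ rose by 0.45, 0.53 and 0.39 on the log2 scale, and UQCRB, another small subunit, was not called (0.13, adjusted p = 0.165) but was called higher with the GC and length trend removed (0.49, adjusted p = 0.00255). UQCR11 had the largest ratio of means of the small subunits, 1.51, at 7.17, 6.22 and 6.42 FPKM in NC and 11.1, 9.57 and 9.26 in siPSCA. Of its exon bases 10.9% are shared on the same strand with AC005943.1, which had 0 reads. The call of UQCRQ was lost without siPSCA 1 (adjusted p = 0.0816) and without siPSCA 2 (0.0657). UQCRHL is an intronless near-copy of UQCRH, and reads that fit both may have been split. It was at 1.20, 1.08 and 1.20 FPKM in NC and at 1.60, 2.14 and 1.84 in siPSCA, and rose by 0.40 ± 0.10 SE (adjusted p = 0.0189). Its call was lost without NC 2 (0.0541), without siPSCA 2 (0.0686) and without siPSCA 3 (0.0555).

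CYCS, the cytochrome c that shuttles electrons from complex III to complex IV and also takes part in apoptosis when released from mitochondria, was at 41.2, 41.7 and 40.2 FPKM in NC and at 56.6, 51.8 and 52.3 in siPSCA. The groups lay well apart, and the log2 fold change was 0.38 ± 0.05 SE (adjusted p = 0.00262). The annotation lists 40 CYCS pseudogenes, which drew 0.980% of the summed reads.

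**Figure D2:**
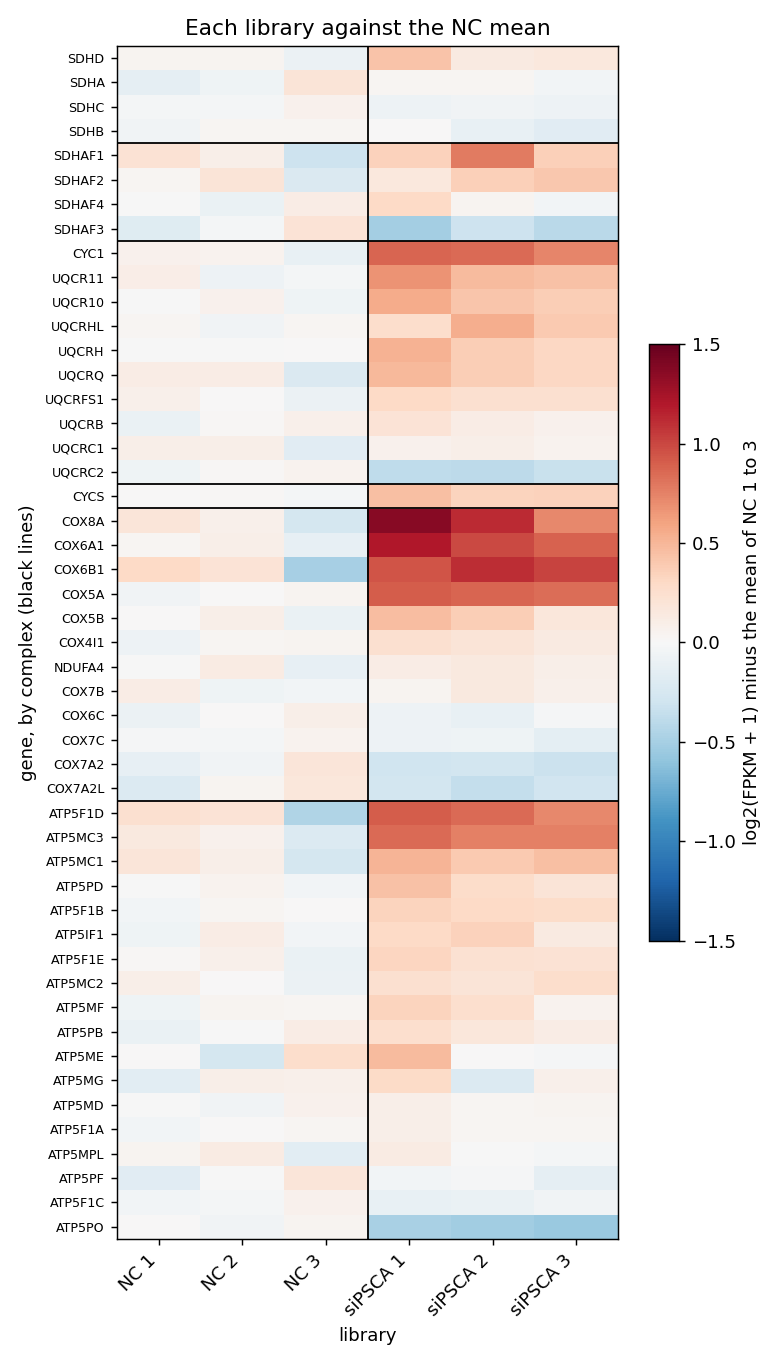
Log2(FPKM + 1) of each library minus the mean of NC 1 to NC 3 for the 49 members over the minimum, grouped by complex and ordered by fold change within each complex. Red is above the NC mean and blue is below it. The red rows of COX8A, COX6A1, COX6B1, COX5A, CYC1, ATP5F1D and ATP5MC3 run across all 3 siPSCA libraries, and NC 3 differs from NC 1 and NC 2 for COX6B1 and ATP5F1D.

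Complex IV, cytochrome c oxidase, hands the electrons to oxygen, and its nuclear subunits surround a catalytic core encoded by the mitochondrial genome. COX6A1, COX6B1 and COX8A are each the widely expressed form of a small subunit that has a tissue-restricted form, and COX5A is a subunit on the matrix side. COX6A1 (chr12:120438090-120440742, plus strand) was at 7.84, 8.20 and 6.91 FPKM in NC and at 18.8, 16.2 and 14.9 in siPSCA. COX6B1 (chr19:35648223-35658861, plus strand) was at 54.4, 51.0 and 30.8 FPKM in NC and at 85.4, 96.2 and 90.1 in siPSCA. COX8A (chr11:63974607-63976543, plus strand) was at 34.7, 32.3 and 25.3 FPKM in NC and at 80.0, 67.4 and 50.8 in siPSCA. In all 3 genes every siPSCA library exceeded every NC library, and the spread was widest for COX6B1 in NC and for COX8A in siPSCA.

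The ratio of the means was 2.17 for COX6A1, 2.00 for COX6B1 and 2.15 for COX8A. On the log2(FPKM + 1) scale COX6A1 rose by 1.02 ± 0.10 SE (adjusted p = 0.00111), COX6B1 by 1.02 ± 0.21 SE (adjusted p = 0.00917) and COX8A by 1.07 ± 0.19 SE (adjusted p = 0.00563). COX5A (chr15:74919791-74938168, minus strand) rose with less spread, from 25.7, 27.0 and 27.7 FPKM in NC to 51.3, 49.8 and 48.5 in siPSCA (0.87 ± 0.05 SE, adjusted p = 0.000293). Without NC 3 the estimate for COX6B1 was 0.77. These 4 genes kept their call without each single library and under each alternative tried. The 2 pseudogenes of COX6A1 drew 16.6% of the summed reads, and its call was made with and without them. Of the exon bases of COX8A 34.5% are shared on the same strand with AP000721.1, which had 0 reads. For COX6A1 13.0% are shared in this way with AL021546.1, also at 0 reads.

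**Figure D3:**
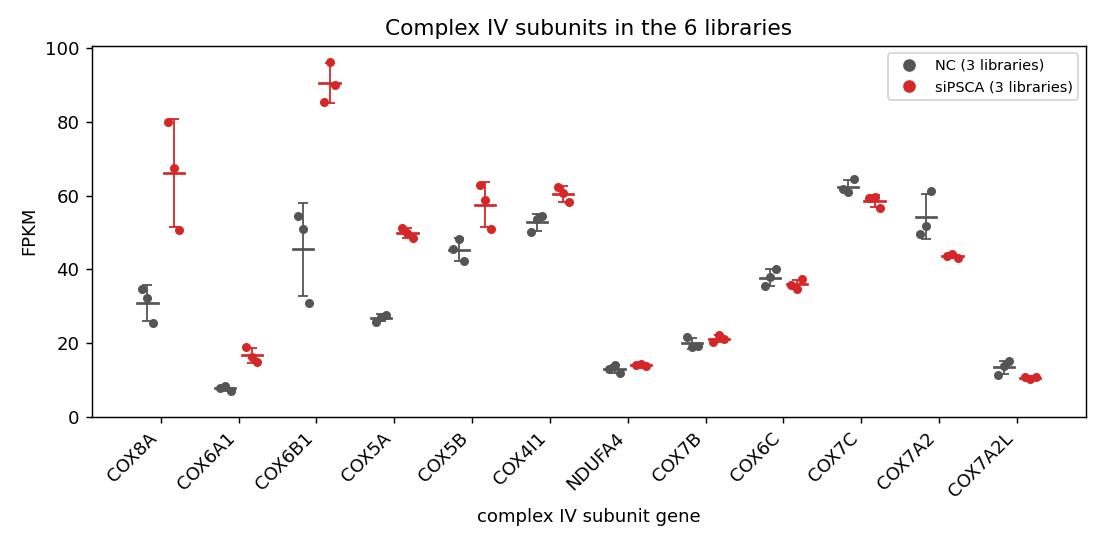
FPKM of the 12 complex IV subunit genes over the minimum, with points for single libraries, horizontal lines for the means and error bars for SD over 3 libraries, in order of fold change. COX8A, COX6A1, COX6B1 and COX5A are separated by the widest relative gaps, whereas COX6C and COX7B overlap.

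Promoters of the complex IV genes with the largest rises are shown for letters just upstream of a RefSeq start in COX6A1, COX6B1 and COX8A. They are the core letters of sites bound by GABPA, an ETS family factor known to act on many respiratory genes. These letters, CCGGAAG, searched on both strands, are in capitals, and each sequence holds the 120 bases before a RefSeq transcription start in GRCh38.p14, read 5′ to 3′ on the strand of the gene. COX5A, which rose by a like amount, and ATP5PO, the member with the largest fall, are shown beside them and hold no such letters in these bases. The RefSeq starts lie inside the genes as annotated, by 23 bases for COX6A1, 100 for COX6B1, 13 for COX8A, 95 for COX5A and 176 for ATP5PO. The marked letters of COX6A1 and COX6B1 are thus within the annotated gene, and those of COX8A span its first base.
COX6A1, chr12:120437993-120438112, plus strand: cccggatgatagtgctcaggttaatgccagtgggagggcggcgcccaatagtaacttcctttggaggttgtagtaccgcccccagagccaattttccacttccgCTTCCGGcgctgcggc
COX6B1, chr19:35648203-35648322, plus strand: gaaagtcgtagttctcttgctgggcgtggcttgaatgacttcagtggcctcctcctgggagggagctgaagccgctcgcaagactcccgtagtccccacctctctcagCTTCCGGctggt
COX8A, chr11:63974500-63974619, plus strand: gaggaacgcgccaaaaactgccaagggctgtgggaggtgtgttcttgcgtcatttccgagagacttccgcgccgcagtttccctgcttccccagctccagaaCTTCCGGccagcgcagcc
COX5A, chr15:74938074-74938193, minus strand: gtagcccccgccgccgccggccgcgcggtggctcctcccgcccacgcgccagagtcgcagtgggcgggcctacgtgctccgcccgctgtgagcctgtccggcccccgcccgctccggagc
ATP5PO, chr21:33915805-33915924, minus strand: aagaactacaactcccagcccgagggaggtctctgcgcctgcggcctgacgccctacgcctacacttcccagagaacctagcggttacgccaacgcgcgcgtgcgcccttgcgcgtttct

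The 5 promoters were picked after the fold changes were seen. Of the 58 members 43 matched a gene with a promoter in the RefSeq table, which spans 250 bases before to 50 bases after the start. CCGGAAG stood in 18 of the 43 (41.9%), beside 12.2% of 27305 genes with a promoter and 23.4% of the tested genes. It lay wholly within the last 20 bases before the start in 4 members, COX6A1, COX6B1, COX8A and SDHAF2. How many promoters of other genes hold it at this position was not counted, so the position cannot be called particular to these members. Among members with a promoter it occurred in 9 of 17 called higher, 1 of 5 called lower and 8 of 17 not called. The NRF1 letters GCGCATGC stood in 10 of the 43 (23.3%), beside 3.68% of all genes with a promoter and 6.63% of the tested ones, and occurred in 4 of the 17 higher, 0 of the 5 lower and 6 of the 17 not called members.

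The YY1 letters AAGATGGC stood in 5 of the 43 promoters (11.6%, beside 3.52% of all and 6.81% of tested genes) and the SP1 letters GGGCGG in 27 (62.8%, beside 48.3% and 78.6%). All were searched on both strands, and in 1 member promoter, that of SDHAF2, an ETS match and an NRF1 match shared a base. A match of letters is not a measured binding site. Among the members with no matched promoter were CYC1, ATP5F1D, ATP5MC3 and ATP5F1B.

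Of the remaining complex IV genes, COX4I1, the subunit through which ATP regulates the enzyme, was at 50.1, 53.7 and 54.4 FPKM in NC and at 62.5, 60.6 and 58.1 in siPSCA. The groups did not overlap, and the rise of COX4I1 was small at 0.19 ± 0.05 SE (adjusted p = 0.0262). Its call was lost without NC 1 (adjusted p = 0.0662), NC 2 (0.0587), siPSCA 1 (0.0940) or siPSCA 2 (0.0873), and under TPM scaling (0.111) and upper quartile scaling (0.105). COX5B, a zinc-binding subunit, rose by 0.34 ± 0.09 SE (adjusted p = 0.0246), a call lost without NC 1 (0.0538), siPSCA 1 (0.0789) or siPSCA 2 (0.0809).

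COX7C, the complex IV gene with the highest NC mean, was at 61.9, 61.0 and 64.5 FPKM in NC and at 59.3, 59.5 and 56.5 in siPSCA. Every siPSCA library of COX7C was below NC, and the difference of -0.09 ± 0.05 SE was not called (adjusted p = 0.138). NDUFA4, first described as a complex I subunit and now placed in complex IV, was at 12.8, 14.1 and 11.7 FPKM in NC and at 13.9, 14.3 and 13.8 in siPSCA (0.12 ± 0.07 SE, adjusted p = 0.213). COX7B was at 21.5, 18.9 and 19.2 FPKM in NC and at 20.3, 22.1 and 21.0 in siPSCA, and COX6C was likewise not called (-0.07, adjusted p = 0.374). With the GC and length trend removed, COX7B (0.27), COX7C (0.20) and NDUFA4 (0.34) were called higher.

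A pair of complex IV genes fell. COX7A2, the common form of subunit 7A, was at 49.6, 51.9 and 61.1 FPKM in NC and at 43.6, 44.3 and 43.2 in siPSCA (-0.30 ± 0.08 SE, adjusted p = 0.0244). COX7A2L, a relative that joins complexes III and IV into supercomplexes, was at 11.3, 13.7 and 15.0 FPKM in NC and at 10.8, 10.1 and 10.7 in siPSCA (-0.31 ± 0.10 SE, adjusted p = 0.0417). In both genes NC 3 was the highest library and the siPSCA libraries lay close together.

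The calls of COX7A2 and COX7A2L were lost in several fits with 1 library left out, though both kept their direction in every fit. Without siPSCA 1, siPSCA 2 or siPSCA 3 the adjusted p of COX7A2 was 0.0743, 0.0676 and 0.0711. For COX7A2L it was 0.108 without NC 2, 0.0601 without NC 3 and 0.0927, 0.123 and 0.0919 without siPSCA 1, siPSCA 2 or siPSCA 3. With the GC and length trend removed, neither was called (adjusted p = 0.205 and 0.176). Summed over both genes, the level was 67.5 ± 7.76 FPKM in NC and 54.2 ± 0.342 in siPSCA.

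The tissue-restricted forms of complex IV subunits were nearly silent in both groups. COX4I2, the lung-enriched form of subunit 4, had no read in any library, which allows at most 0.238 to 0.258 FPKM per library at 3 reads. COX6A2, the heart and muscle form of COX6A1, had 1 read in all, in NC 1, and COX7B2 had 1 read in all, in siPSCA 2. COX8C had 1 read in NC 3 and 2 in siPSCA 2. COX6B2, the testis form of COX6B1, was at 0.390, 0.241 and 0.289 FPKM in NC and at 0.263, 0.324 and 0.245 in siPSCA, and COX7A1, the heart and muscle form of subunit 7A, was at 0.414, 0.628 and 0.692 FPKM in NC and at 0.235, 0.503 and 0.327 in siPSCA. Both overlapped between groups. NDUFA4L2, the hypoxia-responsive paralog of NDUFA4, was at 0.477 ± 0.102 FPKM in NC and 0.403 ± 0.0769 in siPSCA, also under the minimum.

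Complex V has a catalytic F1 head in the matrix and a membrane part with a ring of c subunits that turns as protons pass. ATP5F1B, the catalytic beta subunit, had the highest level of all members, at 299, 315 and 309 FPKM in NC and 387, 377 and 373 in siPSCA, with no overlap and a log2 fold change of 0.30 ± 0.04 SE (adjusted p = 0.00318). ATP5F1C, the gamma subunit of the rotor, was at 59.4, 60.0 and 63.9 FPKM in NC and at 56.3, 57.1 and 58.9 in siPSCA, a difference that was not called (-0.09 ± 0.05 SE, adjusted p = 0.179). ATP5F1A, the alpha subunit, was not called either (0.05, adjusted p = 0.373), but was called higher with the GC and length trend removed (0.19, adjusted p = 0.0115).

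ATP5F1D, the delta subunit of the central stalk (chr19:1241746-1244826, plus strand), rose from 26.6, 26.01 and 16.1 FPKM in NC to 42.8, 41.3 and 37.6 in siPSCA (0.83 ± 0.19 SE, adjusted p = 0.0132), the largest estimate in complex V with all libraries. NC 3 was far below NC 1 and NC 2, and without NC 3 the log2 fold change of ATP5F1D was 0.60, below the 0.68 of ATP5MC3. ATP5F1D was at 0.21 and ATP5MC3 at 1.06 with the GC and length trend removed. Its call was lost without siPSCA 1 (adjusted p = 0.0512). ATP5F1E, the epsilon subunit, rose by 0.26 ± 0.06 SE (adjusted p = 0.0181), a call lost without siPSCA 1 (0.0687) or siPSCA 2 (0.0548). In all, 3 of 5 genes of the F1 head were called higher, beside 26.6% of all tested genes. With the GC and length trend removed 4 of 5 were, beside 21.2%.

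ATP5MC1, ATP5MC2 and ATP5MC3 encode the same mature c subunit behind different import sequences. ATP5MC3 (chr2:175176258-175184607, minus strand) was at 16.2, 15.3 and 12.5 FPKM in NC and at 27.0, 25.3 and 25.3 in siPSCA, and rose by 0.78 ± 0.10 SE (adjusted p = 0.00198). ATP5MC1 was at 17.5, 16.4 and 12.6 FPKM in NC and at 22.2, 20.5 and 21.4 in siPSCA (0.45 ± 0.12 SE, adjusted p = 0.0219), and ATP5MC2 was at 16.6, 15.6 and 14.6 FPKM in NC and at 18.5, 17.9 and 18.9 in siPSCA (0.23 ± 0.06 SE, adjusted p = 0.0202). The groups of all 3 genes were apart, and the ranges of their NC levels overlapped, so the 3 could not be ordered in NC. Their sum was 45.8 ± 5.47 FPKM in NC and 65.6 ± 2.04 in siPSCA, a ratio of 1.43.

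Of the c subunit genes, ATP5MC3 kept its call without each single library. The call of ATP5MC1 was lost without siPSCA 1 (adjusted p = 0.0755), siPSCA 2 (0.0541) or siPSCA 3 (0.0610), and that of ATP5MC2 without NC 2 (0.0562), siPSCA 1 (0.0679), siPSCA 2 (0.0530) or siPSCA 3 (0.0682). Under upper quartile scaling ATP5MC2 was not called (0.0507), nor was it with the GC and length trend removed (0.0511).

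ATP5PO, the stalk protein also known as OSCP that joins the head to the peripheral stalk (chr21:33903453-33915980, minus strand), was the complex V gene that fell. It was at 10.4, 9.97 and 10.7 FPKM in NC and at 7.12, 6.93 and 6.75 in siPSCA, a log2 fold change of -0.52 ± 0.05 SE (adjusted p = 0.00120). The groups were far apart relative to their spread, and the call held without each single library and under each alternative tried. Of the exon bases of ATP5PO 19.6% are shared on the same strand with AP000311.1, which had 0 reads, and 8.99% on the opposite strand with LINC00649. Among the other stalk genes, ATP5PD rose by 0.30 (adjusted p = 0.0179, and 0.0536 without siPSCA 2), ATP5PB was at 0.18 (adjusted p = 0.0775) and ATP5PF at -0.06 (adjusted p = 0.598). Without NC 3 ATP5PB was called higher (adjusted p = 0.0142).

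ATP5IF1, the small inhibitor that blocks ATP hydrolysis by the head, was at 21.2, 24.2 and 21.5 FPKM in NC and at 27.6, 28.6 and 24.6 in siPSCA (0.26 ± 0.08 SE, adjusted p = 0.0344). Groups did not overlap, though NC 2 and siPSCA 3 lay close, and the call was lost without NC 1 (0.0899), NC 3 (0.0565), siPSCA 1 (0.108) or siPSCA 2 (0.115). It was also lost under TPM scaling (0.0660), upper quartile scaling (0.0746) and the removal of the GC and length trend (0.0787).

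ATP5MD, a small membrane subunit with the second highest complex V level, was at 78.4, 76.1 and 82.7 FPKM in NC and at 84.1, 80.9 and 81.3 in siPSCA (0.05 ± 0.05 SE, adjusted p = 0.398). ATP5MD was called higher with the GC and length trend removed (0.16, adjusted p = 0.0180). The membrane subunits ATP5ME, ATP5MF, ATP5MG and ATP5MPL were not called, with log2 fold changes of 0.03 to 0.21, and the call of ATP5MF appeared without siPSCA 3 (adjusted p = 0.0255). Exons of the opposite-strand gene MYL5 overlap 61.6% of the exon bases of ATP5ME, so with the strand setting of the counting not stated, reads of these genes cannot be told apart. ATP5S (0.732 to 1.00 FPKM), ATP5MGL (7 reads in all) and the read-through ATP5MF-PTCD1 (11 reads in all) were under the minimum.

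Across all genes the log2 fold change moved with GC content (Spearman's rho = 0.66 over 13792 genes, which are not independent replicates), and among the 49 members rho was 0.39. NC 3 differed from NC 1 and NC 2 along the same axis (rho = -0.56). The members called higher had a median GC of 48.1%, those called lower 43.6% and those not called 44.0%. How much of the members' differences comes from this trend was not tested, so the fit was repeated with each library's trend along GC and gene length removed. Then 28 members were called higher and 3 lower, beside 21.2% and 18.4% of all tested genes (39.6% in either direction), and the median log2 fold change of the members was 0.22.

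Calls that were shared between both fits numbered 19 among the higher and 2 among the lower members, the latter UQCRC2 and ATP5PO. The members most altered by the removal were rich in GC. CYC1, with 64.5% GC, went from a log2 fold change of 0.82 to 0.19 and was no longer called (adjusted p = 0.166). ATP5F1D, with 63.9% GC, went from 0.83 to 0.21 and was still called (adjusted p = 0.0293). UQCRC1, with 59.5% GC, went from 0.07 to -0.38 and was called lower (adjusted p = 0.00110).

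In the opposite direction, COX6A1, with 40.8% GC, went from 1.02 to 1.33, and ATP5MC3, with 41.0%, from 0.78 to 1.06. COX6B1 (0.86), COX8A (0.83) and COX5A (0.91) moved less, from 1.02, 1.07 and 0.87. The median of complex II became 0.11, of complex III 0.35, of complex IV 0.25 and of complex V 0.18.

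**Figure D4:**
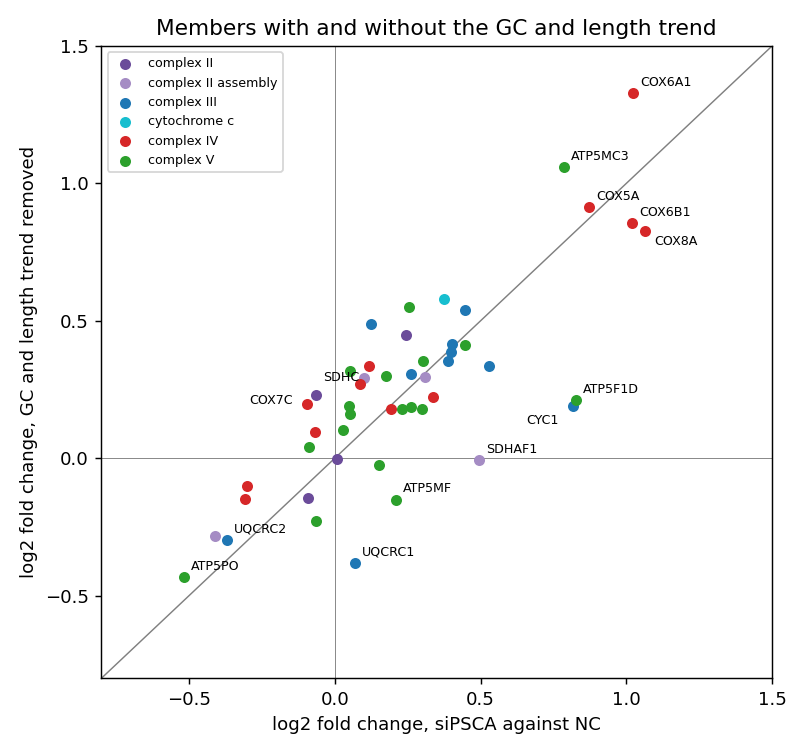
Log2 fold change of the 49 members as fitted (horizontal) and with each library's trend along GC and gene length removed (vertical), coloured by complex; the diagonal marks equal values. CYC1, ATP5F1D, SDHAF1 and UQCRC1 lie far below the diagonal, while COX6A1 and ATP5MC3 lie above it.

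Within the siPSCA group, siPSCA 1 was the highest of the 3 libraries for 18 of the 22 members called higher and siPSCA 3 the lowest for 16. Within NC, NC 3 was the lowest for 15 of these 22 and the highest for all 5 members called lower. Without NC 3 there were 22 members called higher and 4 lower, beside 29.1% and 24.7% of all tested genes (53.8% in either direction).

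The factors that build these complexes were examined as lists. Over all tested genes 26.6% were called higher and 24.2% lower, or 21.2% and 18.4% with the GC and length trend removed. For complex III, 4 of 6 assembly factors rose and 1 fell, with a median of 0.30, and with the GC and length trend removed 2 rose and 0 fell. The largest rise was that of UQCC3 (0.59, adjusted p = 0.0279, lost without NC 3 at 0.0550), and TTC19, which clears fragments of the Rieske protein, fell by 0.20. For complex IV, 9 of the 27 tested assembly and copper delivery factors rose and 3 fell, with a median of 0.15. CHCHD10, a small protein of the intermembrane space, was at 12.5, 10.4 and 13.0 FPKM in NC and at 38.6, 37.1 and 32.3 in siPSCA, and it rose by 1.51 ± 0.10 SE (adjusted p = 0.000480), or 0.75 with the GC and length trend removed. COA5 had the largest fall of the list (-0.48, adjusted p = 0.00285). For complex V, 2 of the 4 tested factors rose, TMEM70 (0.43, adjusted p = 0.00892) the more.

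Of the 13 citric acid cycle genes outside complex II 4 rose and 1 fell, with a median of 0.13. Beside this list and the next stand 26.6% of all tested genes called higher and 24.2% lower. MDH2, the mitochondrial malate dehydrogenase, rose by 0.40 (adjusted p = 0.0117) and SUCLA2, a subunit of succinyl-CoA ligase, fell by 0.24 (adjusted p = 0.0127). With the GC and length trend removed neither was called, and SUCLA2 was at 0.05, as TTC19 of complex III assembly was at 0.09. Among the 7 carriers and channels that move ADP, ATP and phosphate 2 rose and 1 fell, with a median of 0.09. SLC25A6 rose by 0.50 (adjusted p = 0.00286; -0.16 and not called with the GC and length trend removed) and its paralog SLC25A4 fell by 0.40 (adjusted p = 0.00466).

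Of the 12 tested transcriptional regulators of respiratory genes 4 rose and 3 fell (26.6% and 24.2% of all tested genes), with a median near 0 (-0.0046). ESRRA, a nuclear receptor that drives mitochondrial genes, was at 12.0, 11.7 and 5.86 FPKM in NC and at 24.3, 23.5 and 21.9 in siPSCA. NC 3 was far below the other NC libraries, and the log2 fold change of ESRRA was 1.22 ± 0.25 SE with it (adjusted p = 0.00880) and 0.92 without it. ESRRA was at 0.61 (adjusted p = 0.00910) with the GC and length trend removed. GABPA, whose letters are marked in the promoters above, fell from 15.2 ± 1.03 to 10.2 ± 1.26 FPKM (-0.54 ± 0.10 SE, adjusted p = 0.00618). With the GC and length trend removed GABPA was not called (-0.22, adjusted p = 0.0611). In the list 5 then rose and 0 fell, beside 21.2% and 18.4% of all tested genes. TFAM of this list went from called lower (-0.18, adjusted p = 0.0473) to called higher (0.13, adjusted p = 0.0318). Exons of GABPA overlap 20.2% of the exon bases of ATP5PF on the opposite strand. PPARGC1A had 2 reads in all.

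The 6 mitochondrially encoded partners of complexes III, IV and V did not move together. MT-CYB, the cytochrome b of complex III, rose by 0.60 ± 0.16 SE (adjusted p = 0.0248), or 0.40 without NC 3, and MT-CO3 of complex IV rose by 0.52 ± 0.11 SE (adjusted p = 0.0120). MT-CO1, the catalytic subunit of complex IV, fell by 0.23 (adjusted p = 0.0168), and was at -0.14 and not called with the GC and length trend removed. The median of the 6 was -0.04, and without NC 3 it was -0.17 with 2 genes called higher and 3 lower. With the GC and length trend removed it was 0.20, with 2 higher and 0 lower. Of all tested genes 29.1% were called higher and 24.7% lower without NC 3, and 21.2% and 18.4% with the trend removed. MT-ATP6 and MT-ATP8 overlap, so their reads cannot be fully told apart. The mitochondrial genome took 6.33% of the reads in NC 3 and 7.50% to 7.95% in the other libraries.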

How the data were processed

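RNA of HCT116SCs was sequenced in 3 NC and 3 siPSCA libraries, grouped by the sample labels. The authors deposited FPKM values for 58735 genes of GENCODE release 29 (GRCh38). The aligner, counting program and strand setting are not given in the sources used here. The length behind FPKM was the union of all exons of a gene, so levels of different genes depend on the annotated exons. FPKM multiplied by length was a whole multiple of 1 step (tolerance 0.02) for 100% of values, and reads were recovered from it, 16803235 to 18218661 in the totals behind the FPKM values. Floors, set at 3 reads, cover counting error only.

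limma 3.58.1 in R 4.3.3 (lmFit, eBayes with trend) was fitted to log2(FPKM + 1), with a minimum mean FPKM of 1, the group as the only term and Benjamini-Hochberg adjustment over 13796 genes. Fold changes on this scale understate low genes. The fit was tested on simulated data. Python 3.11.15 with pandas 2.3.3 made the tables and matplotlib 3.10.9 the plots. Members and lists were chosen with earlier results of these data known, and counts of listed genes are descriptions. All members were named. Values per library were given for the 3 highest members and the largest rise and fall of each complex, for paralog sets, SDHA to SDHD, CYCS, CYC1, NDUFA4 and ATP5IF1. Of the lists, the called members with the largest rise and fall were named. Among them only CHCHD10 and ESRRA have values per library. SDHAF1, UQCR11, COX5A and MT-CO3 were singled out after their values were seen. GC content was that of the longest transcript. Trends were removed with splines of GC and length.

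Alternatives were a pseudocount of 0.1, no minimum or a minimum of 5 FPKM, TPM or upper quartile scaling, limma-voom on recovered reads, trend removal, added pseudogene reads, each library left out and a replicate block. Replicate numbers were checked for pairing: deviations of same-numbered libraries correlated at 0.096, 0.013 and 0.13, so the numbers were not taken as pairs.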

Additional observations from a re-analysis of the deposited data

How the results depend on the processing

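Log2 fold changes of the 49 members gave 653 results on the same side of the threshold and in the same direction over all alternatives, 67 that lost and 23 that gained a call, and 38 that changed direction, none of them for a called member. With no minimum, a minimum of 5 FPKM or a replicate block the estimates equal those of the main fit, so no direction could change there. With block and trend removal together they equal those of trend removal alone. Of the 27 calls 12 were kept under every alternative and 14 in every fit without 1 library. Members called higher numbered 13 to 22 when each library was left out, 16 with no minimum FPKM, 20 under TPM and 19 under upper quartile scaling, 25 under limma-voom and 28 with the GC and length trend removed. Members called lower numbered 2 to 5 when each library was left out, 2 with no minimum and 3 with the trend removed. In the main fit 26.6% of all tested genes were called higher and 24.2% lower. The share called higher was 16.7% without siPSCA 1 and 17.4% without siPSCA 2. It was 29.1% without NC 3, with 24.7% lower, and 21.2% with the trend removed, with 18.4% lower. Shares of all tested genes under the other settings were not counted.

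The median log2 fold change of complex II was -0.077 under TPM scaling, -0.091 under upper quartile scaling, 0.11 with the trend removed and -0.070 to 0.036 when each library was left out. That of complex III was 0.33 under upper quartile scaling, 0.35 with the trend removed and 0.34 to 0.42 with a library left out. That of complex IV was 0.042 with no minimum, 0.11 under TPM and 0.090 under upper quartile scaling, 0.19 under limma-voom, 0.25 with the trend removed and 0.14 to 0.19 with a library left out. A replicate block could not change any median, because every replicate number is present in both groups. With the block 22 members were higher and 4 lower, and with block and trend removal 25 and 4. NC 2 deviated more like siPSCA 1 than like siPSCA 2.

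Directions changed with the trend removed for SDHA (-0.0030), SDHC (0.23), SDHAF1 (-0.0075), UQCRC1 (-0.38), COX7C (0.20), COX6C (0.094), ATP5F1C (0.040), ATP5MF (-0.15) and ATP5ME (-0.024), under TPM scaling for SDHA (-0.038) and ATP5MPL (-0.015), under upper quartile scaling for SDHA (-0.056), ATP5MD (-0.014), ATP5F1A (-0.017), ATP5MPL (-0.034) and ATP5MG (-0.0036), and with pseudogene reads added for SDHA (-0.0049). With each library left out, SDHA ran from -0.058 to 0.10, SDHAF4 from -0.0011 to 0.17, UQCRC1 from -0.015 to 0.11, ATP5PF from -0.15 to 0.026, ATP5MPL from -0.050 to 0.090, ATP5ME from -0.0076 to 0.28 and ATP5MG from -0.061 to 0.18. Causes were not tested. UQCRHL and SDHAF4 had under 100 reads in every library, which limits their precision.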
